A study of Mus musculus with 2 samples.

Results

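The cells described here are barcodes selected as the earliest round spermatids, the haploid germ cells that have just left meiosis, in single-cell RNA data from whole mouse testis. The data hold 1 library labelled Prm2 +/- and 1 labelled Prm2 -/-, called heterozygous and knockout below. Protamine 2, the product of Prm2, packs DNA in the sperm head in place of histones. The heterozygous library, which serves as the reference, therefore also carries 1 mutant allele. Neither strain, age, number of mice nor the nature of the mutant allele is stated in the labels. Dissociated tubule cells from which Leydig cells had been partly washed away were loaded on the 10x Chromium 3' v3.1 system, which counts RNA molecules as unique molecular identifiers (UMIs).

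A barcode was eligible with at least 3000 UMIs, at most 20% mitochondrial UMIs, fewer than 4 UMIs from the division genes Aurka, Cdk1 and Cdca8, and fewer UMIs from Fam24a, Tex36, Smco4 and Lurap1 than from Pxt1, Hdgfl1 and 1700001F09Rik. The 250 eligible barcodes with the highest share of UMIs from the last 3 genes were taken in each library. They were 250 of 480 eligible and 6253 filtered barcodes in the heterozygous library, and 250 of 1175 eligible and 13170 filtered barcodes in the knockout library. The same number of members thus took 52.1% of the eligible heterozygous barcodes and 21.3% of the eligible knockout barcodes. The members were thus chosen by UMI counts of these 10 genes, and their levels in the members describe the selection and support nothing.

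Round spermatids are the cells in which a haploid genome is transcribed before its chromatin is compacted. They inherit RNA from spermatocytes, begin to assemble the acrosome over the nucleus and the flagellum at the other pole, and store many messages that are translated only after transcription has stopped. The X and Y chromosomes are silenced in meiosis, and part of their genes is transcribed again after it. Transition proteins and then protamines take the place of histones in elongating spermatids, which come later.

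The score rested on few molecules per cell. Scores ran from 2.5523 to 19.7 UMIs per 10000 in the heterozygous members, with a median of 5.24, and from 7.0398 to 26.1 in the knockout members, with a median of 10.5. The last heterozygous member had 4 score UMIs of 15672 and the first barcode left out had 1 of 3928, a score of 2.5458. In the knockout library the last member had 6 of 8523 and the first left out had 3 of 4269, a score of 7.0274. The heterozygous members thus reached much further down the score, and 38 of them carried a single score UMI against 0 of the knockout members. The members held a median of 6813.5 UMIs (3028 to 21949) and 5203 UMIs (3028 to 15656) in the heterozygous and knockout libraries.

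Markers of other cells showed that the selection was mixed. Elongating spermatid transcripts, chiefly protamine and transition protein RNA, made up a median of 118 UMIs per 10000 in the heterozygous members but 1459 at their 90th percentile. In the knockout members the median was 52.9 and the 90th percentile 203. Barcodes rich in markers of elongating spermatids, pachytene spermatocytes, spermatogonia or somatic and blood cells were set aside after these values had been seen. This left 157 heterozygous members (62.8%) and 222 knockout members (88.8%), called the trimmed members. Elongating markers alone set aside 61 heterozygous and 17 knockout barcodes. Values below are for the trimmed members unless all members are named, and results that differ between the 2 are given for both.

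**Figure D1:**
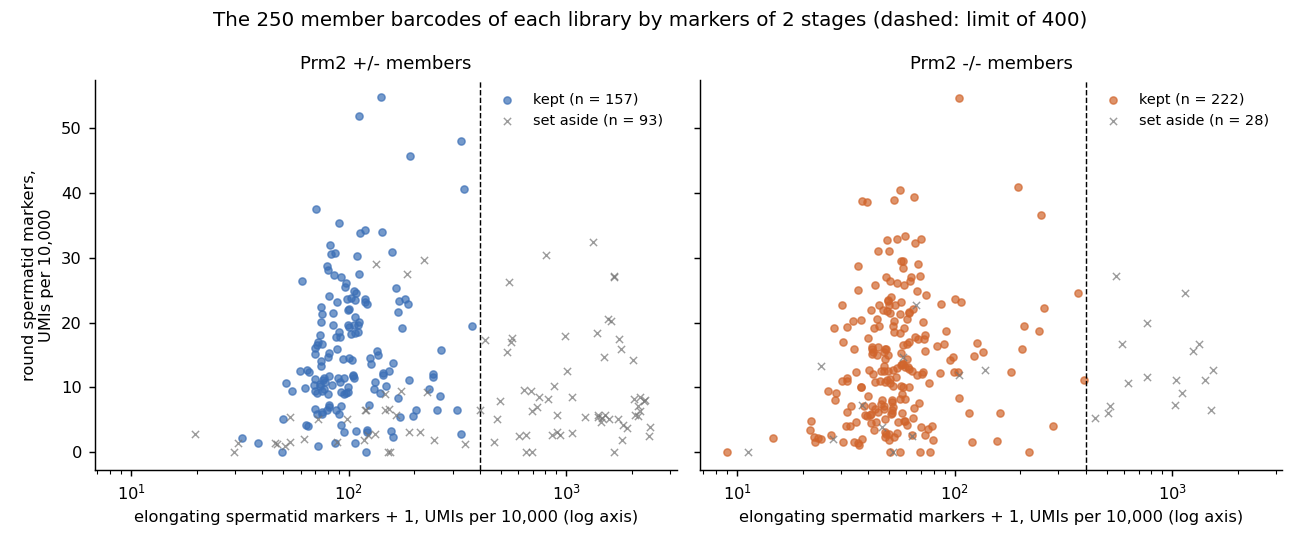
Round spermatid markers against elongating spermatid markers plus 1 (log axis), both in UMIs per 10000, in the 250 members of each library, with kept barcodes as filled points, barcodes set aside as crosses and the limit of 400 dashed. The heterozygous library has 157 kept and 93 set aside, many right of the limit, and the knockout library 222 and 28.

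The trimming fixed the following marker levels in part. Among the trimmed members, the defining Leydig gene Insl3 was at 3.36 and 4.89 CPM (UMIs per 1000000) in the heterozygous and knockout libraries, against 104 and 27.3 CPM in all members. Another Leydig gene, Hsd3b1, was at 0 in the trimmed members of both libraries. The summed Sertoli markers were at 51.3 and 169 CPM, those of macrophages at 6.72 and 7.33 CPM, and those of red blood cells at 0 and 0.814 CPM. Scrublet, a caller of barcodes that hold 2 cells, marked 6 heterozygous (3.82%) and 26 knockout (11.7%) trimmed members, against 5.53% and 18.3% of all filtered barcodes. No member barcode occurred among the members of both libraries, which shared 88 barcodes in all.

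Markers that the rule did not use were read in the members and in the neighbouring stages. The dividing spermatocytes were the 250 barcodes of each library with the highest share of Aurka, Cdk1 and Cdca8. The mid round spermatids were the 250 with the highest share of Fam24a, Tex36, Smco4 and Lurap1. Both stages were thus chosen by genes that the rule limits in the members. A place of the members between them was therefore in part set by the selection. The median share of 12 round spermatid markers was 3.02 UMIs per 10000 in heterozygous and 2.49 in knockout dividing spermatocytes. It was 13.3 and 12.7 in the trimmed members and 57.1 and 53.4 in mid round spermatids. Round spermatid markers were thus already above the spermatocyte level and well below the mid round level in both libraries. In 100 Sertoli barcodes of each library, which should lack these genes and so show free RNA, the median was 9.27 and 6.08. The members' medians were above that share in both libraries. In UMIs per barcode, Acrv1 averaged 1.63 and 1.05 in trimmed members and 0.19 and 0.15 in Sertoli barcodes, whose median depths were 8095 and 5220.5 against 1580.0 and 3312.5 UMIs.

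**Figure D2:**
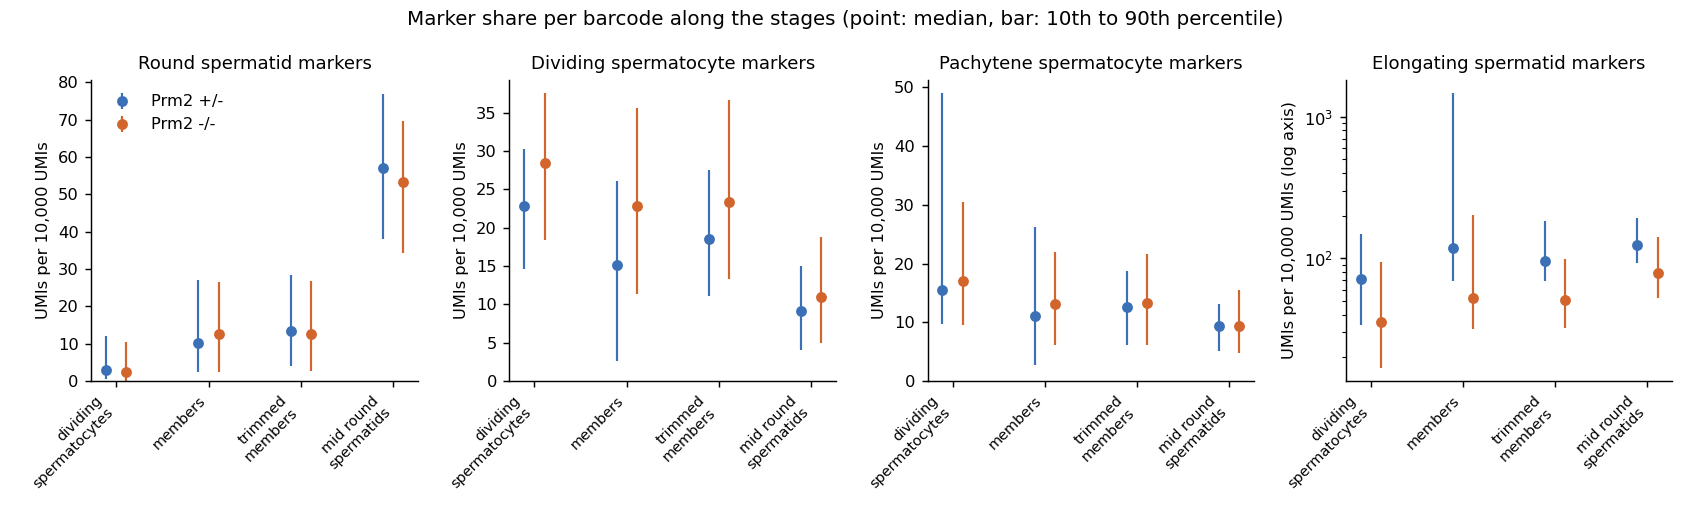
Median share of UMIs per 10000 (points) with the 10th to 90th percentile over barcodes (bars) for 4 marker sets in dividing spermatocytes, all members, trimmed members and mid round spermatids of both libraries; the axis of the elongating markers is a log axis. Round spermatid markers stand at 13.3 and 12.7 in the trimmed members, between both neighbours, and the bar of elongating markers in all heterozygous members reaches 1459.

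Markers of division lay between the same neighbours, nearer to the spermatocytes. Their median share was 22.8 and 28.4 UMIs per 10000 in dividing spermatocytes, 18.6 and 23.3 in the trimmed members and 9.18 and 10.9 in mid round cells. Ccnb1, which encodes a cyclin that drives entry into division, was at 222 and 185 CPM in heterozygous and knockout dividing cells, 248 and 240 CPM in the members and 141 and 114 CPM in mid round cells. Bub1b, a spindle checkpoint kinase, was already lower, at 30.3 and 12.2 CPM against 58.7 and 53.5 CPM in dividing cells. Tpx2, a spindle assembly factor, stood at 65.5 and 35.8 CPM against 110 and 98.2 CPM in dividing cells. Cdc20, an activator of the anaphase-promoting complex, was at 239 and 368 CPM against 311 and 459 CPM. Single division genes thus differed in how they stood against dividing cells. In the trimmed members Ccnb1 was above them in both libraries, while Bub1b, Tpx2 and Cdc20 were below. In all members Ccnb1 was at 196.3 and 226.6 CPM, below dividing cells in the heterozygous and above them in the knockout library. Bub1b rests on low counts.

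Markers of pachytene spermatocytes were used to trim the members, so their trimmed levels are partly fixed by that filter and all members are given here. Sycp3, a protein of the chromosome axis, was at 318 and 386 CPM in dividing cells, 184 and 184 CPM in all members and 37.2 and 44.1 CPM in mid round spermatids. Hormad1, which also coats the axis, was at 173 and 155 CPM, then 101 and 70.3 CPM, then 14.1 and 22.04 CPM. The 8 markers did not share this order. Adam3, a sperm surface protein, was at 641 and 674 CPM, then 549.9 and 711 CPM, then 569 and 639 CPM, and Sycp1, a synaptonemal complex protein, was in the heterozygous library at 239 CPM, then 268 CPM, then 230.5 CPM. By the round spermatid and division markers the selected cells lay between division and the mid round stage, an order that the selection set in part. The rule's limit of fewer than 4 division UMIs does not by itself show that meiosis was complete.

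The 3 score genes are described at the neighbouring stages beside the members, whose levels the rule fixed. Pxt1, which encodes a testis-specific peroxisomal protein, lies on chromosome 17 at 28933984 to 28943840 (mm10, minus strand). It was at 173 and 265 CPM in heterozygous and knockout dividing spermatocytes, 195 and 411 CPM in the trimmed members and 36.4 and 75.2 CPM in mid round cells. Hdgfl1, a gene related to hepatoma-derived growth factor on chromosome 13 at 26768173 to 26770165, was at 265 and 347 CPM, then 372 and 571 CPM, then 155 and 213 CPM. Both were thus already abundant in dividing spermatocytes. The uncharacterized 1700001F09Rik, on chromosome 14 at 43342383 to 43347811, was at 17.5 and 12.9 CPM in dividing cells, 126.9 and 142.5 CPM in the members and 82.2 and 72.9 CPM in mid round cells.

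In the trimmed members, Hdgfl1 was found in 95.5% of heterozygous and 96.8% of knockout barcodes, Pxt1 in 77.7% and 91.9%, and 1700001F09Rik in 56.7% and 49.1%. All 3 genes were found together in 72 of 157 and 91 of 222 barcodes. In the Sertoli barcodes Pxt1 had a UMI in 6% and 16%, at median depths of 1580.0 and 3312.5 UMIs, and 1700001F09Rik in 0% and 4%. After every barcode was thinned to 1000 UMIs, the Pxt1 share was 14.6% and 34.2% in the trimmed members and 5% and 2% in the Sertoli barcodes.

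The promoters of Pxt1 and of a pair of genes described further below, Mbd5 and Ppfia2, are shown as the only score gene with an entry in the promoter table and as the 2 leading genes of the stage with a SOX match. Each runs from 250 bases before to 50 bases after the RefSeq gene start (GRCm38.p6) and is written 5′ to 3′ on the gene's strand. Pxt1 is at chr17:28942213-28942512 (minus strand), Mbd5 at chr2:48949258-48949557 and Ppfia2 at chr10:106470060-106470359 (both plus strand). Capitals mark matches, on either strand, to the full cAMP response element TGACGTCA, to its short form TGACG, which on the other strand reads CGTCA, or to the SOX motif ACAATGG. The short form lies within the full element.
Pxt1: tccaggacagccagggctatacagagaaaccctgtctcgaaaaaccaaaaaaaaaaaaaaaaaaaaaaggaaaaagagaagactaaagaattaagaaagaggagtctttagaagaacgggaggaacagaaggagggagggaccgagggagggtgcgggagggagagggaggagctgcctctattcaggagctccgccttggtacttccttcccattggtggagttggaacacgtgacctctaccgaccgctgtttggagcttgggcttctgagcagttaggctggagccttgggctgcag
Mbd5: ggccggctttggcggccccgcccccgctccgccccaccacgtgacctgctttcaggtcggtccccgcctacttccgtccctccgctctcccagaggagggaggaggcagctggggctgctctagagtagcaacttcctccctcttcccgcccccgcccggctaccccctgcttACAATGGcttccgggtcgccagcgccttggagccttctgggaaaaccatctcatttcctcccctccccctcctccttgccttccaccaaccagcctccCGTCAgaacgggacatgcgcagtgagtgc
Ppfia2: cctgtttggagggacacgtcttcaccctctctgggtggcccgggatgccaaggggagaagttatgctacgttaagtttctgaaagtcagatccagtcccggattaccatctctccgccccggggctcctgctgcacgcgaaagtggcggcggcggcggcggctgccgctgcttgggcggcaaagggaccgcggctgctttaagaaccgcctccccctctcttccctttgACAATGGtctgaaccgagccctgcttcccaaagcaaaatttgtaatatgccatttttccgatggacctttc
None of the 3 motifs was found in the Pxt1 window. That window lies inside the Pxt1 span given further above, so the RefSeq start differs from the start of that span. The bases around that other start were not searched. The promoter table held 15 of the 20 genes that led the stage ranking below. The full element was in 0 of these 15 and in 1.79% of all 32851 promoters, the short form in 6 (40%) against 20.8%, and the SOX motif in 2 (13.3%) against 3.66%. A match is a match of letters and was not tested for binding.

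Genes highest at this stage were sought as those at least 2-fold above both dividing spermatocytes and mid round spermatids in both libraries. Of 3400 genes with enough UMIs, 26 met this in the trimmed members (0.765%). All members gave 26 of 3365 genes (0.773%), but that ranking was led by Lcn2, Fabp3 and Ptgds. Lcn2, a secreted lipocalin, was at 117 and 80.3 CPM in all members and at 5.88 and 4.07 CPM in the trimmed members. Ptgds, a prostaglandin synthase, was at 152 and 55.9 CPM in all members, 9.24 and 8.96 CPM in the trimmed members and 944 and 1035 CPM in the Sertoli barcodes. The ranking below is therefore that of the trimmed members, and it has no replicate check beyond the pair of libraries.

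Fgf14, which encodes an intracellular fibroblast growth factor homologue that binds sodium channels, was the most widely detected of the 20 leading genes with 2210408I21Rik. It was at 241 and 189 CPM in heterozygous and knockout dividing cells, 881 and 578 CPM in the members and 83.7 and 87.1 CPM in mid round cells. On the log2 scale the members were 1.87 and 1.61 above dividing cells and 3.40 and 2.73 above mid round cells. A Fgf14 UMI was present in 86.0% of heterozygous and 72.1% of knockout trimmed members, and the gene was at 68.7 and 63.2 CPM in the Sertoli barcodes.

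Atrnl1, an attractin-like membrane protein, headed the ranking at 37.1 and 20.1 CPM in dividing cells, 159 and 125 CPM in the members and 14.9 and 20.9 CPM in mid round cells. It was however at 134 and 154 CPM in the Sertoli barcodes. C730002L08Rik, an uncharacterized gene, was at 43.5 and 15.2 CPM, then 173 and 108 CPM, then 10.96 and 13.6 CPM, and at 3.6 and 9.0 CPM in the Sertoli barcodes. Ptprd, a receptor tyrosine phosphatase, was at 171 and 131 CPM in the members but 217 and 202 CPM in the Sertoli barcodes. Levels in Sertoli barcodes were thus low for C730002L08Rik and Fgf14, and as high as in the members, or higher, for Atrnl1 in the knockout library and for Ptprd in both.

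Adhesion, scaffold and signalling genes were among the other leading genes. Ppfia2, a liprin scaffold protein, was at 103 and 50.1 CPM in dividing cells, 240 and 152 CPM in the members and 30.1 and 25.4 CPM in mid round cells. Cntn6, a contactin adhesion molecule, was at 26.7 and 10.2 CPM, then 145 and 87.1 CPM, then 61.4 and 43.0 CPM. Ppm1e, a phosphatase, was at 77.5 and 44.4 CPM, then 205 and 159 CPM, then 36.8 and 39.6 CPM.

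Each of the 7 genes above was lower in the knockout than in the heterozygous trimmed members. They are the genes described first and not the whole ranking. Those given with levels in dividing cells were lower in the knockout there too. In mid round cells Ppfia2 and Cntn6 were lower in the knockout and Fgf14, Atrnl1, C730002L08Rik and Ppm1e higher. Over all compared genes 47.3% were higher in the knockout. The peak over both neighbours in each library was required by the rule and is no separate result. Hs2st1, a heparan sulfate sulfotransferase, was at 63.0 and 57.0 CPM in the members against 20.6 and 11.8 CPM before and 14.9 and 14.1 CPM after. The uncharacterized 2210408I21Rik was at 476 and 338 CPM against 198 and 148 CPM before and 173 and 159 CPM after, and had a UMI in 90.4% and 74.8% of the members. Mbd5, Fam172a, Mettl25, Elp4, D3Ertd751e, Zbtb20, Arl14ep, Dcdc2a, Babam2 and Rev3l also met the rule. The last of the 20 ranked genes, 5330438D12Rik, missed it with a lowest log2 difference of 0.99. The other 7 of the 26 were the predicted genes Gm45488, Gm3453, Gm13986, Gm13598, Gm7247, Gm10754 and Gm19710, for example Gm7247 at 130.2 and 103 CPM in the members and 50.9 and 44.7 CPM in mid round cells. Of these, Rev3l, the catalytic subunit of a translesion DNA polymerase, was at 137 and 132 CPM in the Sertoli barcodes, and Zbtb20, a zinc finger repressor, at 213 and 316 CPM.

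**Figure D3:**
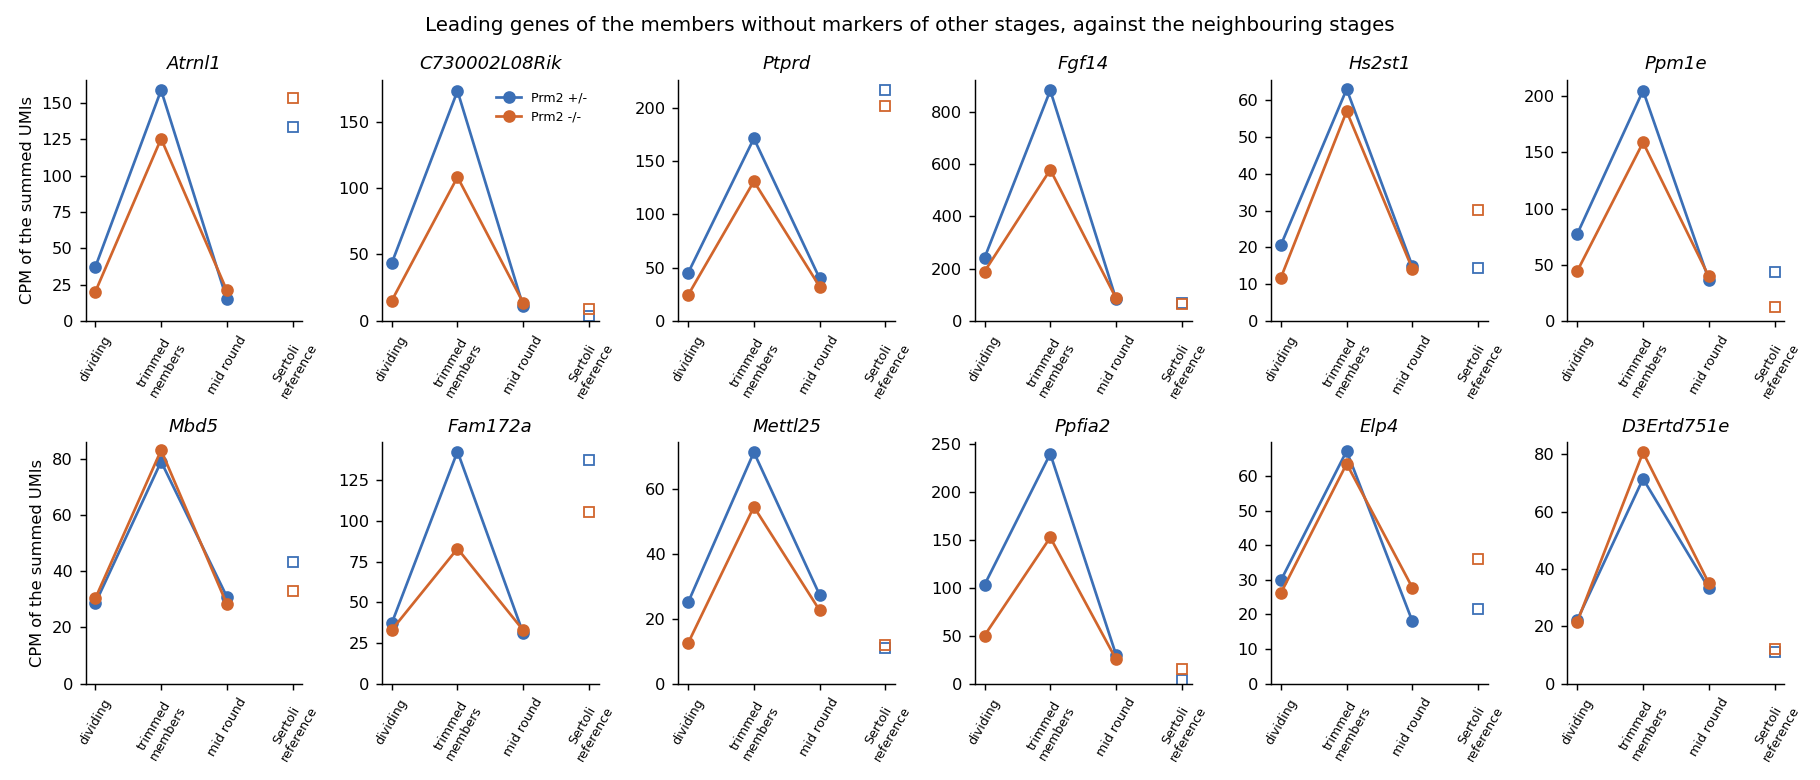
Level in CPM of the 12 first genes of the ranking in dividing spermatocytes, trimmed members and mid round spermatids of each library (points joined by lines), with the Sertoli barcodes as open squares. By the rule of the ranking, each gene is highest in the members among the 3 germ cell stages, for example Fgf14 at 881 and 578 CPM. Ptprd is higher in the Sertoli barcodes at 217 and 202 CPM.

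Many of the genes with a peak in the trimmed members were long. In the GENCODE M21 annotation the 26 genes spanned a median of 205.9 kb, against 21.3 kb for the 3397 tested genes with a position. Among them 19 (73.1%) spanned at least 100 kb, against 13.1% of all tested. In all members the 26 genes that met the rule spanned a median of 64.4 kb, and 11 (42.3%) spanned at least 100 kb, against 13.3% of all tested. All genes of at least 100 kb together made up 10.07% of UMIs in heterozygous and 8.77% in knockout trimmed members, against 8.70% and 8.29% in dividing cells and 8.73% and 8.28% in mid round cells. Whether reads in introns were counted is not given in the sources used here, and the part of intronic reads in these levels was not tested. With each cell weighted equally 14 genes met the rule, and with cells thinned to 3000 UMIs 13 did.

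Against dividing spermatocytes alone, 440 of 3920 genes (11.2%) were at least 2-fold higher in the trimmed members of both libraries and 146 (3.72%) at least 2-fold lower. Adgb, a large globin of cilia and sperm tails, was at 19.7 and 12.9 CPM in dividing cells and 147.0 and 108 CPM in the members. The uncharacterized 4933436I20Rik was at 21.6 and 9.10 CPM and then 188 and 124 CPM. Cldnd1, a claudin-domain membrane protein, was at 6.98 and 7.96 CPM and then 53.8 and 56.2 CPM. These 3 genes were ranked by the smaller ratio of the pair of libraries, so both libraries were past the 2-fold limit by selection.

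Pou5f2, a POU transcription factor, led the genes lower than in dividing cells, at 90.2 and 192 CPM in dividing cells and 10.9 and 35.0 CPM in the members. Nsmce3, a subunit of the SMC5/6 complex, was at 58.1 and 130.4 CPM and then 13.4 and 27.7 CPM. Rassf1, a tumour suppressor that binds microtubules, was at 164 and 195 CPM and then 39.5 and 53.8 CPM. The splicing genes Snrpb and Lsm3 were also among the 8 with the largest drop, with Snrpb at 69.2 and 102 CPM and then 18.5 and 22.8 CPM.

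Against mid round spermatids, 485 of 4037 genes (12%) were at least 2-fold higher in the trimmed members and 780 (19.3%) at least 2-fold lower. Nek2, a centrosomal kinase, was at 139 and 147 CPM in the members and 13.7 and 17.0 CPM in mid round cells. Mnat1, which assembles the CDK-activating kinase, was at 70.6 and 74.1 CPM and then 7.04 and 7.35 CPM. Diablo, a mitochondrial protein that binds inhibitors of apoptosis, was at 263 and 337 CPM and then 25.4 and 49.2 CPM. All 3 were at or above the members' level in dividing spermatocytes, in which Nek2 was at 205 and 214 CPM, except Mnat1 in the heterozygous library at 64.4 CPM.

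Other genes were still nearly silent in the members. Dscc1, which loads the replication clamp, was at 4.201 and 7.33 CPM in the members and 127 and 123 CPM in mid round cells. Pde7b, a phosphodiesterase that breaks down cAMP, was at 1.68 and 3.26 CPM and then 54.0 and 56.5 CPM. Clec4a2, a C-type lectin receptor, was at 8.40 and 6.51 CPM and then 129 and 88.2 CPM. Levels this low in the members rest on a few UMIs per library.

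Gene lists for spermatid structures were read along the same stages. Of 26 acrosome genes with enough UMIs, 11 were at least 2-fold higher than in dividing cells in both libraries and 0 lower. Of 30 compared with mid round cells, 16 were at least 2-fold lower and 0 higher. The summed list was at 9556 and 10107 CPM in dividing cells, 11085 and 11819 CPM in the members and 16357 and 16529 CPM in mid round cells. Acrosome transcripts were thus under way in the members, and the shares read against the 11.2% and 19.3% over all genes.

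Members of the acrosome list differed in how far they had come. Spaca1, a membrane protein needed to shape the acrosome, was at 51.8 and 47.4 CPM in dividing cells, 196 and 279 CPM in the members and 707 and 826 CPM in mid round cells. Acrv1, an acrosomal matrix protein, was at 44.1 and 28.1 CPM, then 215 and 189 CPM, then 572.5 and 592.4 CPM. Lyzl6, a lysozyme-like protein of the acrosome, was at 17.1 and 25.8 CPM, then 71.4 and 123 CPM, then 471.5 and 590.7 CPM. By contrast Spink2, an acrosomal protease inhibitor, was flat at 1844 and 2576 CPM, then 1758 and 2700.3 CPM, then 1625 and 2320 CPM.

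Thinned to 1000 UMIs, 25.5% of heterozygous and 16.7% of knockout trimmed members held an Acrv1 UMI, against 70.7% and 52.7% without thinning. The thinned share was 10% and 4% in the Sertoli barcodes, against 17% and 14% unthinned, which is the share that free RNA can give.

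Of 44 flagellum genes compared with dividing cells, 6 were at least 2-fold higher and 0 lower, beside 11.2% and 3.72% over all genes. Of 46 compared with mid round cells 12 were higher and 5 lower, beside 12% and 19.3%. Rsph1, a radial spoke protein, was at 3313 and 3913 CPM in dividing cells, 2407 and 2790 CPM in the members and 891 and 1054 CPM in mid round cells. Odf2, a protein of the outer dense fibres and of centrioles, was at like levels throughout, from 1502 and 1373 CPM to 1658 and 1518 CPM and then 1847 and 1677 CPM. Of the 14 calcium and hyperactivation channel genes compared with dividing cells, 4 were higher and 1 lower, beside the same 11.2% and 3.72%. Catsper4, a sperm calcium channel subunit, was at 18.1 and 14.4 CPM, then 103 and 62.7 CPM, then 198 and 186.5 CPM.

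The division list of 19 genes compared with dividing spermatocytes held 0 at least 2-fold higher and 1 lower, beside 11.2% and 3.72% over all genes. Of 16 compared with mid round cells, 8 were higher in the members and 0 lower, beside 12% and 19.3%. Ccna1, the germ cell cyclin A, was at 339 and 363 CPM in dividing cells, 274 and 380.3 CPM in the members and 105 and 127 CPM in mid round cells. Cks2, which binds cyclin-dependent kinases, was at 59.7 and 138 CPM against 168 and 399 CPM in dividing cells, more than 2-fold lower in both libraries. In all members it was at 110.3 and 147.7 CPM, less than 2-fold lower in the heterozygous library. Bub1b and Tpx2, described above, were also lower than in dividing cells. Of 13 synapsis and recombination genes, 3 were lower than in dividing cells and 1 higher, beside 3.72% and 11.2% over all genes. This list shares Sycp1, Sycp2, Sycp3, Hormad1 and Meiob with the markers used for trimming.

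Mitochondrially encoded transcripts were the list whose every compared gene separated the members from mid round cells. They summed to 14034 and 14274 CPM in dividing cells, 14314 and 15290 CPM in the members and 2608 and 4261 CPM in mid round spermatids. All 11 compared were at least 2-fold higher in the members than in mid round cells, beside 12% over all genes. Their median log2 difference was 2.49 and 1.74, and 0 of 11 differed by 2-fold from dividing cells. mt-Co3, a subunit of cytochrome oxidase, was at 3450.2 and 3372 CPM in the members and 609 and 997 CPM in mid round cells. The filter of at most 20% mitochondrial UMIs was the same for all stages, and the median per barcode was 1.22% and 1.24% in the members.

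Other lists were read against the 11.2% of all genes higher and the 3.72% lower than in dividing cells. Of 77 cytosolic ribosomal protein genes 0 were higher and 1 lower, and of 25 proteasome and ubiquitin genes 0 were higher and 0 lower. Of 22 genes of messenger RNA storage and translation control 0 were higher and 1 lower. Of 15 spermatid transcription factors 2 were higher and 1 lower, and of 25 sperm glycolysis and energy genes 3 were higher and 1 lower. Of 13 chromatoid body and piRNA genes 0 were higher and 3 lower. The 3 include Piwil1, which was past 2-fold in the trimmed members but not in all members. The share of lower genes in this list was thus partly fixed by the trimming. Piwil1, which binds piRNAs and was also a marker used for trimming, was at 133 and 166.5 CPM in dividing cells, 97.6 and 91.1 CPM in all members and 59.7 and 83.1 CPM in the trimmed members.

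Chromatin lists differed at single genes, read against 11.2% higher and 3.72% lower than in dividing cells over all genes. Of 10 testis histone variant genes 1 was higher than in dividing cells and 0 lower, and of 14 histone acetylation and eviction genes 1 was higher and 0 lower. H2afz, the gene of histone H2A.Z, was at 1219 and 1682 CPM in dividing cells, 923 and 1224 CPM in the members and 483 and 626 CPM in mid round cells. Of 7 apoptosis and p53 target genes 1 was higher than in dividing cells and 0 lower.

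X-linked transcripts were a larger share at each later stage. They made up 0.207% (exact 95% interval 0.202 to 0.212) of UMIs in heterozygous and 0.192% (0.186 to 0.197) in knockout dividing cells. In the trimmed members they made up 0.512% (0.499 to 0.525) and 0.555% (0.542 to 0.569), and in mid round cells 1.086% (1.073 to 1.099) and 1.116% (1.1 to 1.131). The intervals, here and below, cover counting error only. Single members ranged widely, from 0.216% at the 10th to 0.843% at the 90th percentile in the heterozygous and from 0.212% to 0.910% in the knockout library. All members gave 0.661% and 0.606%, so the heterozygous value moved most when other stages were set aside.

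**Figure D4:**
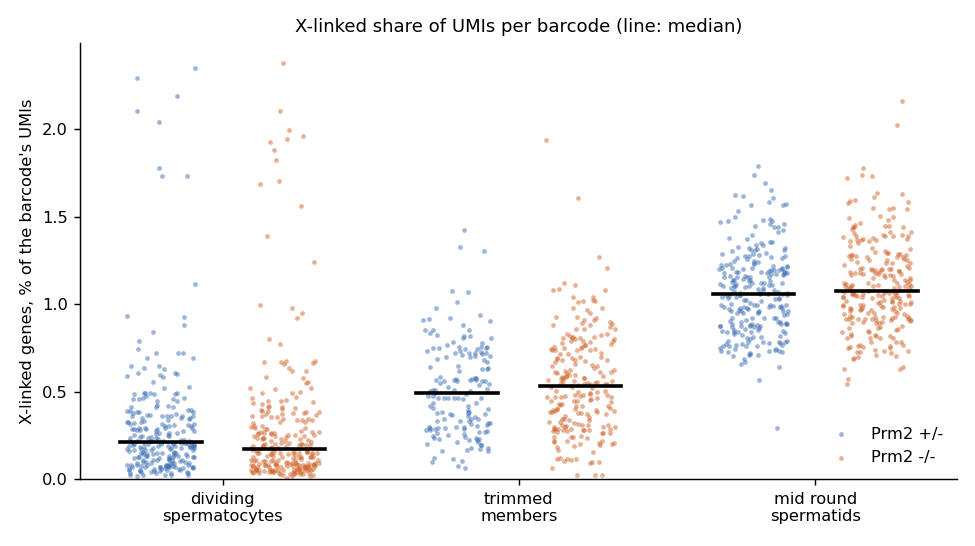
Percent of each barcode's UMIs from X-linked genes in dividing spermatocytes, trimmed members and mid round spermatids of both libraries (points: barcodes, lines: medians). The trimmed members have medians of 0.491 and 0.534, between the spermatocytes at 0.215 and 0.172 and the mid round cells at 1.06 and 1.08.

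Only 2 X-linked genes reached 50 CPM in dividing cells of either library, against 18 and 16 in the trimmed members and 52 and 56 in mid round cells. Tsga8, a testis-specific X-linked gene, was at 106 and 73.2 CPM, then 359 and 360 CPM, then 1008 and 942 CPM. Slxl1, a multicopy gene of the Slx family whose reads may be split between near-identical copies, was at 45.1 and 42.9 CPM, then 156 and 219 CPM, then 351 and 479 CPM. Akap4, a sheath protein of the flagellum, was at 73.0 and 61.8 CPM, then 184 and 106 CPM, then 373 and 285 CPM. It was also a marker used for trimming, at 363.5 and 144.1 CPM in all members. In the Sertoli barcodes it was at 343.5 and 186.6 CPM, above the trimmed members in both libraries.

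Y-linked UMIs followed the same order, at 0.00530% and 0.00554% in dividing cells, 0.0248% and 0.0261% in the members and 0.0421% and 0.0555% in mid round cells. Eif2s3y, a translation initiation factor subunit, was at 8.57 and 8.34 CPM, then 30.3 and 44.0 CPM, then 64.6 and 85.4 CPM. Usp9y, a deubiquitinase, differed in that it was highest in the members, at 21.9 and 13.8 CPM against 4.44 and 4.55 CPM before and 3.52 and 5.65 CPM after. Its counts in the members are low, and it was below the 50 CPM used for comparisons.

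Within the trimmed members, barcodes were put in 3 groups of near-equal size by their share of round spermatid markers. From the lowest to the highest group, mean X-linked UMIs per 10000 went from 37.3 through 54.0 to 64.5 in the heterozygous library and from 33.6 through 59.2 to 72.8 in the knockout library. Division markers went the other way, from 20.9 through 19.7 to 16.1 and from 27.9 through 23.3 to 21.6. Multicopy sex-chromosome genes went from 2.41 through 4.83 to 6.23 and from 2.92 through 5.05 to 7.03. The members were thus not uniform, and the X-linked share moved with the round spermatid markers in both libraries.

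Across the same 3 groups, the 20 leading genes of the stage summed to means of 32.9, 40.5 and 50.9 in the heterozygous library and to 21.9, 32.2 and 29.5 UMIs per 10000 in the knockout library. Only the heterozygous library therefore had its highest value in the group with the most round spermatid markers.

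Between the genotypes, the targeted gene was read first. Prm2, on chromosome 16 at 10791380 to 10796134, had 2609 UMIs (2192.3 CPM) in the heterozygous and 4 UMIs (3.26 CPM) in the knockout trimmed members, a log2 ratio of -9.39 (exact 95% interval -11.27 to -8.04). All members had 14275 and 5 UMIs, a log2 ratio of -11.18. Prm2 in the libraries thus matches their labels. In the heterozygous library, Prm2 UMIs were not particular to the members: thinned to 1000 UMIs, 84.1% of trimmed members (100% unthinned), 73.2% of dividing cells and 97% of Sertoli barcodes (100% unthinned) had one. Each trimmed member held 16.6 Prm2 UMIs on average and each Sertoli barcode 17.5, while the average over all members was 57.1. Since trimming removed barcodes rich in related transcripts, free RNA and RNA made in the members cannot be told apart here.

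Prm1, the other protamine gene, was itself among the markers used for trimming. A trimmed member held 33.2 UMIs in the heterozygous and 12.9 in the knockout library, a member before trimming 109 and 27.8, and a Sertoli barcode 40.5 and 12.97. The log2 ratio of knockout over heterozygous Prm1 CPM was -0.91 in the trimmed members and -1.67 in all members. Tnp1 and Tnp2, the transition protein genes, were at -1.03 and -0.83 in the trimmed and at -1.35 and -1.36 in all members. Prm3 was at -0.32 and -1.20. All 5 genes of this list, the targeted Prm2 included, were at least 2-fold lower in all members, beside 4.57% of all genes. In the trimmed members 2 of 5 were, Prm2 and Tnp1, beside 0.947%. The part of free RNA in these genes was not separated from that made in the cells.

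Across all genes the 2 libraries differed little in the trimmed members. Of 4013 genes with enough UMIs, 52 passed 2-fold upward in the knockout (1.3%) and 38 passed it downward (0.947%), with a median log2 ratio of -0.03. All members gave 99 higher (2.41%) and 188 lower (4.57%) of 4113 genes. Fewer genes were past 2-fold, and fewer of them lower, once other stages and cell types were set aside. Elongating markers set aside 61 heterozygous but 17 knockout barcodes, by limits chosen after the values were seen. The filter itself can thus lower these counts, and its part was not tested. With 1 library per genotype these are differences between libraries with no replicate check, and library preparation and genotype cannot be told apart. The members also took different shares of the eligible barcodes, and division markers stood at 18.6 and 23.3 UMIs per 10000, whose part in the differences was not tested.

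Several of the largest differences in all members came with markers of other cells. Hbb-bs, a beta globin gene of red blood cells used in the trimming, was at 1.16 and 96.1 CPM in all members and at 0 UMIs in the trimmed members of both libraries. Apoe, an apolipoprotein made by macrophages and Leydig cells, was at 93.5 and 21.5 CPM in all members, a log2 ratio of -2.12, and had a ratio of -0.14 in the trimmed members. Agt, the angiotensin precursor, was at 58.1 and 10.8 CPM in all members and had 3 UMIs in each library of the trimmed members. The trimmed members therefore gave no ratio for Hbb-bs and Agt and a ratio near 0 for Apoe.

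Several genes that were higher in knockout trimmed members were also higher at the neighbouring stages. Pfn1, which encodes the actin-binding protein profilin, had a log2 ratio of 1.65 (1.201 to 2.126) in the trimmed members, 1.54 in dividing cells and 1.71 in mid round cells. Rgcc, a cell cycle regulator, was at 1.64 (1.13 to 2.17), 1.36 and 1.95. Elavl1, which encodes the RNA-binding protein HuR, was at 104 and 267 CPM in the trimmed members, a ratio of 1.36 (1.06 to 1.67), and at 1.04 and 1.46 in the neighbours.

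Ppp4c, a phosphatase catalytic subunit, was at 1.61, 1.34 and 1.64 in the members, dividing and mid round cells. Sf3b4, a splicing factor, was at 1.31 (0.97 to 1.66), 0.82 and 1.02. Tmsb4x, which encodes an actin-binding thymosin, was at 1.4997, 1.90 and 0.98, but at 0.89 in all members and under 2-fold in 4 of 14 settings. Its Sertoli level was 1999 and 3677 CPM. These 6 genes were therefore higher in the knockout library at each germ cell stage read here.

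**Figure D5:**
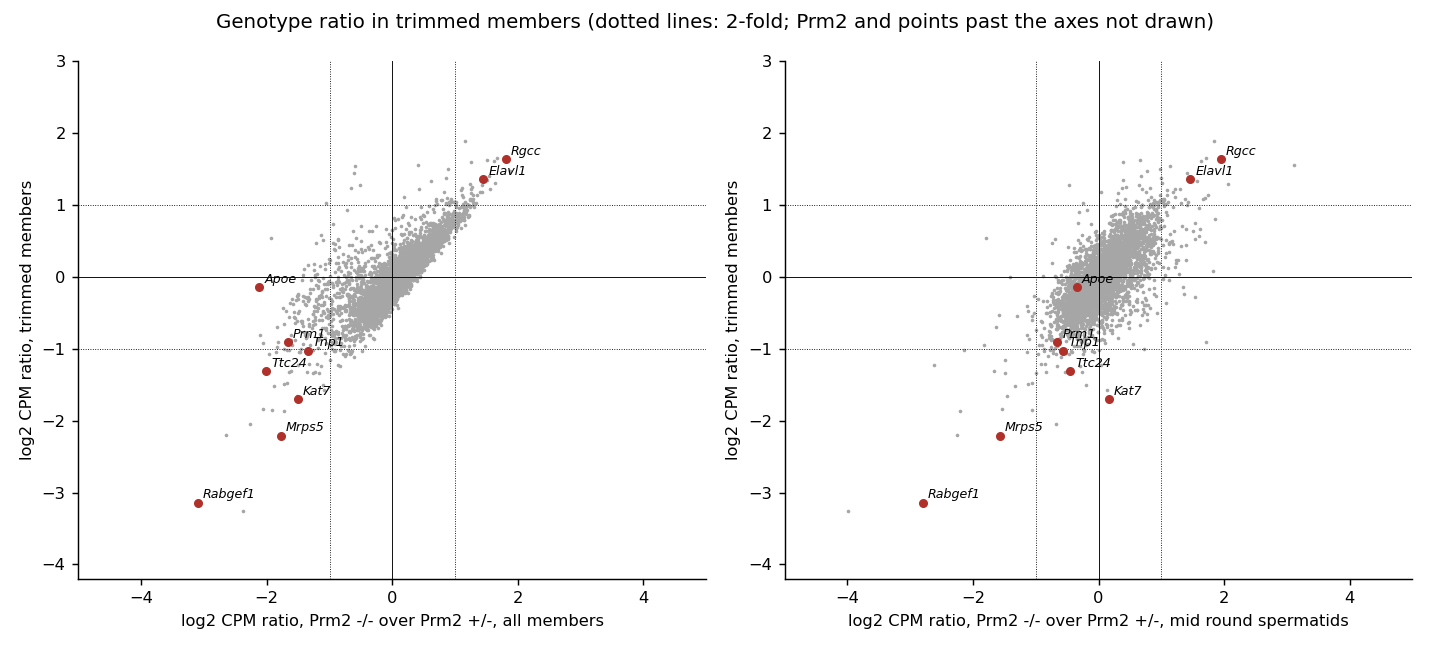
Log2 ratio of knockout over heterozygous CPM per gene in the trimmed members (vertical axis) against all members (left) and mid round spermatids (right), with dotted lines at 2-fold and without Prm2 and points past the axes. Apoe is at -2.12 in all members and -0.14 in the trimmed members, and Kat7 is at -1.70 in the trimmed members and 0.16 in mid round cells.

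Several lower genes were likewise lower at all 3 stages. Rabgef1, an exchange factor of early endosomes, had a log2 ratio of -3.14 (-4.19 to -2.24) in the trimmed members, -4.70 in dividing cells and -2.80 in mid round cells. Mrps5, a mitochondrial ribosomal protein, was at -2.21, -1.80 and -1.57, and in all members was under 2-fold in 5 of 14 settings. Pdxdc1, on chromosome 16 at 13833148 to 13903131, near Prm2, was at -1.66, -1.73 and -1.45. H2-Ab1, a class II histocompatibility gene, was at -3.25, -3.72 and -3.99.

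A few genes had a ratio in the trimmed members that was not seen at one or both neighbouring stages. Kat7, a histone acetyltransferase, was at 89.9 and 27.7 CPM in the trimmed members a log2 ratio of -1.70 (-2.30 to -1.13), against -0.24 in dividing and 0.16 in mid round cells. Adgrl3, a latrophilin adhesion receptor, was at 1.35 in the trimmed members, 0.15 in dividing and 0.39 in mid round cells. The uncharacterized 4930549P19Rik was at -1.505, -0.02 and -0.21, and 1110020A21Rik at 1.41, 0.23 and 0.67. The differences between stages in these ratios were not tested, and the genes were picked out here after their values had been seen. Kat7 was under 2-fold in 5 of 14 other settings, and at -0.11 with Hdgfl1 left out of the score. 4930549P19Rik was also under 2-fold in 5 of 14, Adgrl3 in 1 and 1110020A21Rik in 0.

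The lists gave small medians between genotypes, read beside all genes, of which 47.3% were higher in the knockout trimmed members. Of 77 ribosomal protein genes 64 were lower and 13 higher in the knockout trimmed members, and 0 passed 2-fold. Their median log2 ratio was -0.28 against -0.03 over all genes. The summed list was also lower in the knockout at the neighbouring stages. It was at 56895 and 46907 CPM in heterozygous and knockout dividing cells and 49489 and 42258 CPM in mid round cells. Many of these genes have processed copies that can share reads. Rps15 was at 589.9 and 338 CPM. Of 45 flagellum genes 38 were lower, with a median of -0.31, with 1 past 2-fold upward and 2 past it downward. That list was likewise lower in the knockout at both neighbours, at 18593 and 16954 CPM in dividing and 18110 and 16709 CPM in mid round cells.

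The flagellum genes past 2-fold went both ways. Dnah8, a dynein heavy chain of the sperm tail, was at 1158 and 463 CPM, a ratio of -1.32, with -1.20 in dividing and -0.84 in mid round cells. Dnah17, another such chain, was at 159.7 and 67.6 CPM, a ratio of -1.24. Odf3, an outer dense fibre protein, was at 25.2 and 76.6 CPM, a ratio of 1.60, with 0.70 and 0.38 in the neighbours and under 2-fold in 4 of 14 settings.

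Of 13 calcium and hyperactivation channel genes 10 were lower, with a median of -0.35, and of 28 acrosome genes 19 were lower, with a median of -0.10, and none of either list passed 2-fold. Summed, the channel list was lower in the knockout in mid round but not in dividing cells, and the acrosome list in neither. Of 15 spermatid transcription factors 13 were higher, with a median of 0.18. Their sum was also higher in the knockout at both neighbours, at 8832 and 10019 CPM in dividing and 9430 and 10451 CPM in mid round cells. Tbpl1, a TBP relative required in round spermatids, was at 769.7 and 1327 CPM, a ratio of 0.79, and Ovol2, a zinc finger factor, at 123 and 214 CPM, a ratio of 0.80. Of 20 messenger RNA storage genes 13 were higher and 2 passed 2-fold, which were Elavl1 and Ybx2. That summed list was higher in the knockout at both neighbours as well, at 12734 and 14908 CPM in dividing and 10328 and 12915 CPM in mid round cells. Ybx2, which binds stored messages in germ cells, was at 710.0 and 1455 CPM, a ratio of 1.04.

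In the remaining lists few genes passed 2-fold. Of 26 proteasome and ubiquitin genes Psma2 at 1.07 and Psmb2 at 1.04 were past 2-fold upward. Of 18 division genes Cks2 was higher, at 1.21 in the trimmed and 0.42 in all members. Testis histone variants had a median of 0.31 over 10 genes, with H3f3a, a gene of the replacement histone H3.3, at 786.5 and 1329 CPM, a ratio of 0.76. Mitochondrial transcripts had a median of 0.08 over 11 genes, glycolysis and energy genes 0.00 over 26, histone acetylation genes 0.14 over 14, synapsis genes -0.11 over 13, chromatoid body genes 0.02 over 11, apoptosis genes 0.04 over 7 and multicopy sex-chromosome genes 0.06 over 3. None of these 7 lists had a gene past 2-fold in the trimmed members.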

How the data were processed

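RNA of mixed testicular cells was counted in 2 libraries, 1 per genotype. The deposited values are UMI counts per gene and barcode. The file headers name Cell Ranger 7.1.0, and Seurat 4.1.0 and the mm10 build are named in the submitters' processing notes. What Seurat did, and whether introns were counted, is not given in the sources used here. Of 32285 gene IDs, 32235 were found in GENCODE M21. Columns of other samples numbered 0.

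The members and gene lists were chosen with earlier results of these data known. Members and neighbouring stages were taken by marker shares. Scrublet (scanpy 1.11.5) calls of 3.07% and 15.7% of barcodes were kept in and left out in an alternative. Members with at least 400 elongating, 30 pachytene, 40 somatic or blood or 5 spermatogonial marker UMIs per 10000 were set aside, leaving the trimmed members, limits chosen after the data were seen. UMIs were summed per set and library and scaled to CPM. Genes at 50 CPM and 100 UMIs or more were compared, and 2-fold was used as a limit of size without testing. Ratios and shares have exact 95% intervals. With 1 library per genotype no p-value was computed. Scripts were tested on simulated data.

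Genes named are the 20 highest over both neighbours, the 8 highest and lowest over each, the 10 highest and lowest between genotypes, up to 3 by level and 3 by ratio per list, leading sex-linked genes, markers and score genes, with Gm genes left out of rankings. A few genes within this rule are not reported here. Promoters came from RefSeq (GRCm38.p6). Other settings tried were member number, depth, doublets, score genes, thinning, weighting, TMM factors (edgeR 4.0.16) and CPM minimums.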

Additional observations from a re-analysis of the deposited data

How the results depend on the processing

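No paired analysis was possible because each genotype has 1 library. Counts and shares below are for all members. At least 2-fold higher genes numbered 99, and 56 with 150 members, 291 with 500 (all 480 heterozygous), 212 without Pxt1, 300 without Hdgfl1 (210 heterozygous) and 153 without 1700001F09Rik in the score, 168 with cells weighted equally and 34 at 200 CPM. The refined members gave 52, 55 weighted equally and 34 thinned to 3000 UMIs. At least 2-fold lower genes numbered 188, and 63 with 150 members, 288 with 500, 292 weighted equally, 71 at 200 CPM, and 38, 57 and 18 for the refined members, their equal weighting and thinning. The higher genes were 34.5% of those past 2-fold, and 38.5% with TMM, 47.1% with 150 members, 50.3% with 500, 50.7% without Pxt1, 55.2% without Hdgfl1 and 57.8%, 49.1% and 65.4% for the refined members. The log2 ratio of all genes had a median of 0.05, and 0.30 with 500 members, 0.27 without Hdgfl1, 0.19 without Pxt1 and 0.14 from 5000 UMIs.

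The Prm2 log2 ratio was -11.18, and -9.81 with 150 members, -14.39 without Pxt1, -12.88 without 1700001F09Rik, and -9.39, -9.65 and -8.52 for the refined members, weighted equally and thinned. Genes highest at this stage numbered 26, and 90 with 500 members, 63 from 5000 UMIs, 82 without Pxt1, 130 without Hdgfl1, 48 without 1700001F09Rik, 8 thinned, 7 weighted equally, 92 at 10 CPM, 3 at 200 CPM, and 14 and 13 for refined members weighted equally and thinned.

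The heterozygous X-linked share was 0.661%, and 0.593% with 150 members, 0.867% with 500, 0.699% from 5000 UMIs, 0.795% without Pxt1, 0.840% without Hdgfl1, 0.693% without 1700001F09Rik, 0.751% thinned, 0.744% weighted equally, and 0.512%, 0.518% and 0.516% for the refined members. The knockout share was 0.606%, and 0.665% with 500, 0.589% from 5000 UMIs, 0.560% without Scrublet doublets, 0.643% without Pxt1, 0.684% without Hdgfl1, 0.583% without 1700001F09Rik, and 0.555%, 0.552% and 0.553% for the refined members.

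Of 437 values of 32 named genes, 317 stayed within their interval, 117 moved and 3 changed sign: 4930549P19Rik was at 0.155 without Hdgfl1, and Apoe at 0.0487 and 0.0852 in refined members weighted equally and thinned. In all 14 settings 15 genes kept 2-fold, 9 higher and 6 lower. The cause of these changes was not tested. Intervals cover counting error only, and genes below 50 CPM were too shallow to compare.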
